A study of Mus musculus with 8 samples.

Results

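The neuregulins and the ErbB receptors were examined in dorsal root ganglia of mice whose joint had been injected with monosodium iodoacetate. All 8 members, the receptor genes Egfr, Erbb2, Erbb3 and Erbb4 and the ligand genes Nrg1, Nrg2, Nrg3 and Nrg4, were found by symbol among the 54532 rows of the deposited count table. The set was chosen in part by a measured value, the higher Erbb4 level of acupuncture libraries numbered 1, 2 and 5. Differences of the members between the groups are therefore given as a description, without a test of their own. Where the fit over all genes called a member, that call is given as a description too.

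All animals were C57BL/6 mice with intra-articular iodoacetate, a blocker of glycolysis used to model osteoarthritis. MIA (4 libraries) had no further treatment, and MIA_Acu (4 libraries) had daily manual acupuncture at the leg point ST36 for 7 days. RNA came from ganglia of levels L3-L5; neither age nor sex is stated in the labels. Healthy ganglia and a needling control were not analysed here. The submitters state 3 mice a group, so the tie of each library to its own animal is unknown, and errors measure the spread between libraries.

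Neuregulins are growth factors with an EGF-like domain that bind ErbB3 and ErbB4. ErbB2 binds no ligand and acts as partner, while ErbB3 has little kinase activity of its own, so both work as a pair in Schwann cells. Axonal neuregulin 1, cut by BACE1 and ADAM proteases, drives Schwann cell survival and sets how thickly an axon is myelinated. ErbB4 can signal without such a partner and is best known from inhibitory neurons, heart and central glia. The EGF receptor has other ligands, such as TGF-alpha and HB-EGF.

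Promoter sequence is shown for 2 receptors that were high in the same libraries, Erbb4 and Erbb2, and for Nrg3, a ligand low in them. Each run is the 250 bases before the annotated start, 5′ to 3′ on the gene's strand, from RefSeq in build GRCm38.p6. Of the 8 members 5 were taken from that table: Egfr, Erbb2, Erbb4, Nrg3 and Nrg4. A chromosome was left out of the search for members but not out of the shares over all promoters. Erbb4 lies at chr1:69108060-69108309 on the minus strand, Erbb2 at chr11:98412234-98412483 on the plus strand and Nrg3 at chr14:39473089-39473338 on the minus strand. Capitals mark the match to a searched motif.
Erbb4: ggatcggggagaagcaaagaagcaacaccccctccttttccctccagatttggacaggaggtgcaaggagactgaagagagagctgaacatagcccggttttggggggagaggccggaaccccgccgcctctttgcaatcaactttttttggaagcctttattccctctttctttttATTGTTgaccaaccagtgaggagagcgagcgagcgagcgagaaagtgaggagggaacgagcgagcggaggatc
Erbb2: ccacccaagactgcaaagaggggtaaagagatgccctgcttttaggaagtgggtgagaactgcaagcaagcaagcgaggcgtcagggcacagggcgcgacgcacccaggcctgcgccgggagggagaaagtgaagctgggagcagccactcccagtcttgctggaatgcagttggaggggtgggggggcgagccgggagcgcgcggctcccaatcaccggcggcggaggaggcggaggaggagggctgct
Nrg3: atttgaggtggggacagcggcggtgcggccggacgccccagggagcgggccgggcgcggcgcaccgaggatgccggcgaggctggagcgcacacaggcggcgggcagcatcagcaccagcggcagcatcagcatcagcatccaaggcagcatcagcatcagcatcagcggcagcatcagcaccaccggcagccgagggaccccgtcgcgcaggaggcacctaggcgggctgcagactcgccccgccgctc

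Motifs were searched on both strands in these windows, namely ACAAAG and AACAAT, bound by SOX proteins such as the glial factor SOX10, and GCGNGGGCG, bound by EGR proteins. The one match among the 5 members was AACAAT in Erbb4, which begins 73 bases before the start and reads ATTGTT on the printed strand. In the 32851 promoters of the table, 9.42% hold AACAAT, 16.5% hold ACAAAG and 4.7% hold GCGNGGGCG. GC content was 54% for Erbb4, 66% for Erbb2 and 72.4% for Nrg3, beside a median of 52.4% over the table.

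Library totals were 32892804 to 40627041 counts. The column numbered 4 of MIA and the column numbered 3 of MIA_Acu match no sample title, since the titles give those numbers to the opposite groups. They were kept in the group their names give, and differences are also given for the 6 libraries numbered 1, 2 and 5 and, where named, with the group names of this pair of columns exchanged. Levels are CPM, counts per 1000000 of the library's counts after scaling by the trimmed mean of M values (TMM), an adjustment for RNA composition. Genes were tested with edgeR's quasi-likelihood test over all genes, with Benjamini-Hochberg adjustment and a threshold of 0.05. It called 0 of 18971 genes in 8 libraries (smallest adjusted p = 0.0881) and 1963 of 18941 in the 6. Of all tested genes, 2123 were higher and 2014 lower in the 8 libraries at an unadjusted p under 0.05, and limma voom called 0 and DESeq2 1753.

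Per kilobase of the longest annotated transcript, Erbb3 and Nrg1 were the most abundant members. Over the 8 libraries Erbb3 was at 21.6 ± 4.22 and Nrg1 at 20.2 ± 3.16 CPM per kilobase (SD, n = 8), and their ranges overlapped. Nrg3 (6.68 ± 1.16) and Erbb2 (5.26 ± 1.17) came next on the same scale and overlapped each other, but neither overlapped Nrg1. Nrg2 followed at 2.8 ± 0.47 CPM per kilobase, below the range of Erbb2. The lowest were Nrg4 (0.975 ± 0.184), Egfr (0.794 ± 0.234) and Erbb4 (0.542 ± 0.366), each overlapping its neighbour. Divided by the mean instead of the longest transcript length, Nrg1 came first at 52.9 and Egfr moved above Nrg4, so the place of Nrg1 depends on which of its 18 annotated transcripts are present.

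**Figure D1:**
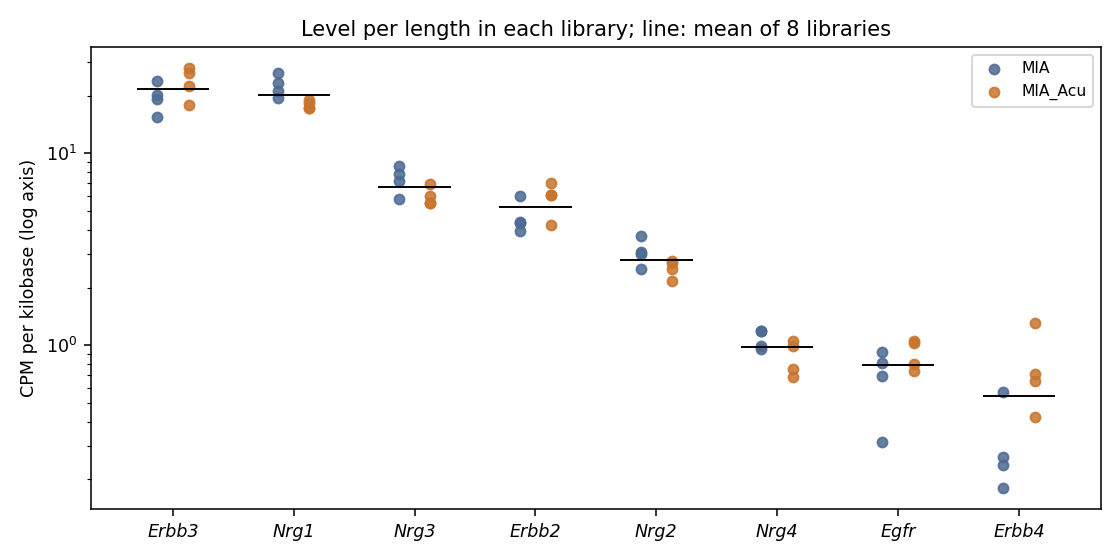
CPM per kilobase of the longest annotated transcript on a log axis, one point a library, in blue for MIA and orange for MIA_Acu, with a line at the mean of 8 libraries. Erbb3 and Nrg1 lie near 20, Erbb4 lies lowest and has the widest relative spread.

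Erbb4 (ENSMUSG00000062209) encodes the receptor whose level chose the set. MIA 1, 2, 4 and 5 held 104, 83, 260 and 116 counts of it, and MIA_Acu 1, 2, 3 and 5 held 300, 279, 188 and 574. These are 3.17, 2.17, 6.86 and 2.85 CPM against 8.56, 7.8, 5.12 and 15.7 CPM. MIA_Acu 5 was highest, MIA 2 lowest, and the groups overlapped because MIA 4 lay above MIA_Acu 3. Mean levels were 3.76 ± 2.11 and 9.3 ± 4.53 CPM (SD, n = 4), a 2.47-fold difference with a log2 fold change of 1.31 (SE 0.42). In the 6 libraries the log2 fold change was 1.97 (SE 0.30). Without MIA_Acu 5 it was 0.93 in 8 and 1.58 in 6 libraries.

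The remaining pair, MIA 4 and MIA_Acu 3, took no part in the choice. There Erbb4 differed the other way, 6.86 against 5.12 CPM, with 1 library a group and so no test. Of the 8 members, 2 (Egfr and Nrg1) had in this pair the direction of the 6 libraries and 6 had the opposite one. MIA_Acu 3 over MIA 4 was -0.51 for Erbb2, -0.42 for Erbb3 and -0.42 for Erbb4 on the log2 scale. The ligands hardly differed, at -0.09 for Nrg1, 0.13 for Nrg2, 0.05 for Nrg3 and 0.04 for Nrg4. How many of all genes went the opposite way in this pair was not examined. With the groups of this pair exchanged, the log2 fold change of Erbb4 was 1.55 (SE 0.33).

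**Figure D2:**
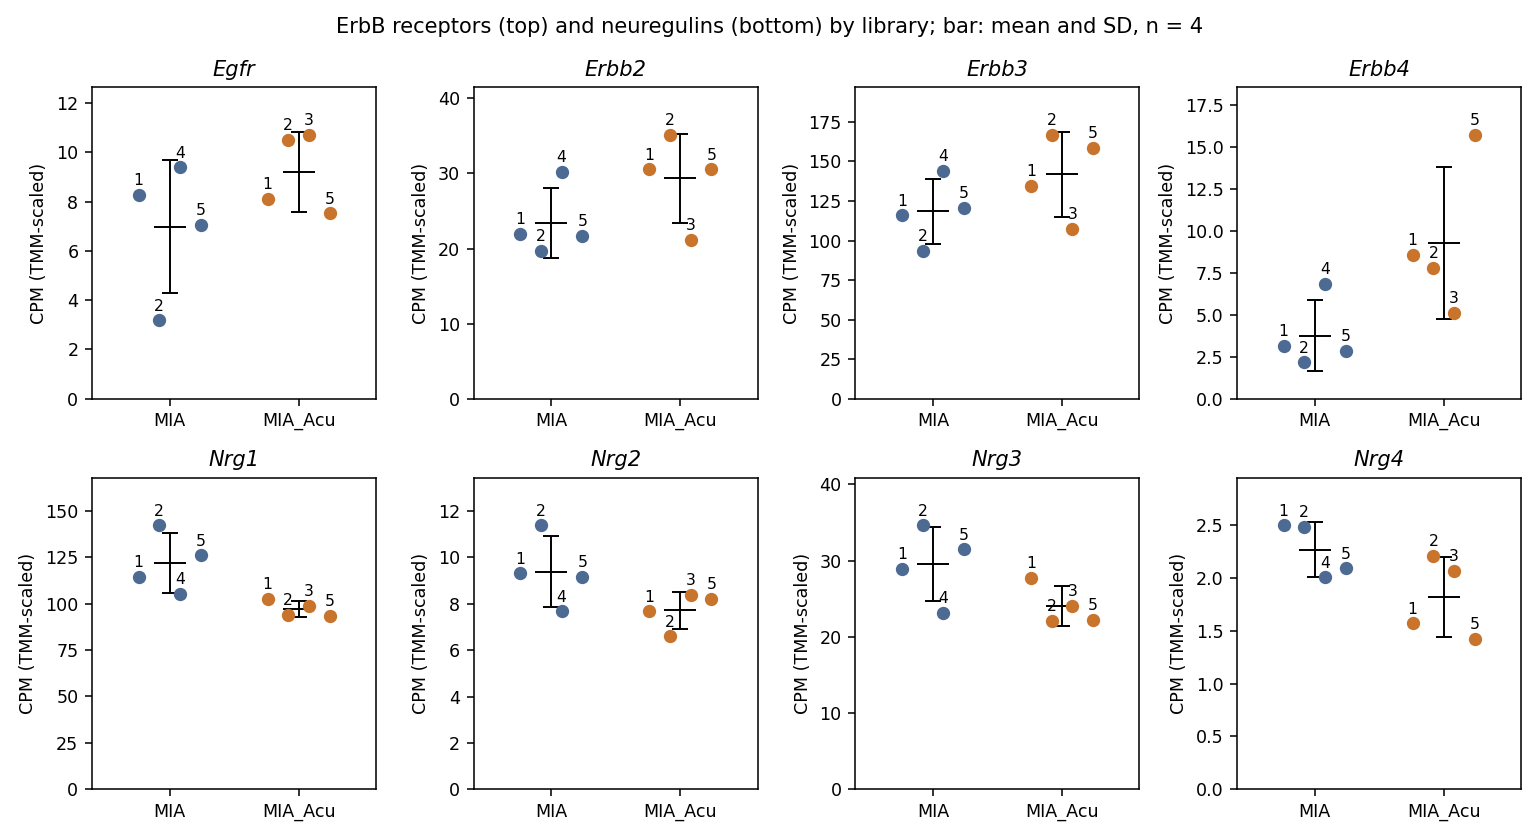
CPM of each member, one point a library labelled with its number, with the mean and SD of 4 libraries as a black bar; receptors above, neuregulins below, each axis from 0. Receptor means are higher and neuregulin means lower in MIA_Acu; MIA 4 and MIA_Acu 3 lie nearest the other group for Erbb2, Erbb3 and Erbb4.

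Erbb3 (ENSMUSG00000018166), the neuregulin receptor of Schwann cells and satellite glia, was at 116, 93.5, 144 and 121 CPM in MIA 1, 2, 4 and 5. In MIA_Acu 1, 2, 3 and 5 it was at 134, 167, 108 and 158 CPM. MIA 4 lay above 2 of the MIA_Acu libraries and MIA_Acu 3 below 3 of the MIA libraries, so the groups overlapped. The log2 fold change was 0.26 (SE 0.16) in 8 libraries, 0.47 (SE 0.12) in the 6 and 0.46 (SE 0.10) with the exchange.

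Erbb2 (ENSMUSG00000062312), its ligand-less partner, was at 21.9, 19.7, 30.2 and 21.6 CPM in MIA and at 30.5, 35.2, 21.1 and 30.6 CPM in MIA_Acu, in the same order of libraries. The outlying libraries were the same as for Erbb3. Its log2 fold change was 0.33 (SE 0.17) in 8 libraries and 0.60 (SE 0.10) in the 6. The ratio of Erbb3 to Erbb2 CPM stayed between 4.4 and 5.58 in every library, with a mean of 5.09 ± 0.413 in MIA and 4.86 ± 0.358 in MIA_Acu (SD, n = 4). That of Erbb4 to Erbb3, in percent, ranged more widely, from 2.32 to 4.77 in MIA and 4.67 to 9.92 in MIA_Acu. Erbb2 overlaps the opposite-strand gene Mien1 (2427 counts in all), and the kit's name gives no strand marking, so reads of such pairs may not be told apart.

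Egfr (ENSMUSG00000020122) was at 8.28, 3.18, 9.39 and 7.06 CPM in MIA and at 8.13, 10.5, 10.7 and 7.53 CPM in MIA_Acu. Only MIA 2 stood clearly below the rest, and without it the log2 fold change went from 0.40 (SE 0.29) to 0.16 in 8 libraries. The groups overlapped, and MIA_Acu 3 was the highest library.

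Among the ligands, Nrg1 (ENSMUSG00000062991), the axonal signal to Schwann cells, was at 114, 142, 105 and 126 CPM in MIA 1, 2, 4 and 5. In MIA_Acu 1, 2, 3 and 5 it was at 103, 93.9, 98.8 and 93.4 CPM. Every MIA_Acu library lay below every MIA library, with means of 122 ± 15.9 and 97.2 ± 4.4 CPM (SD, n = 4). The log2 fold change was -0.33 (SE 0.09) in 8 libraries and -0.41 (SE 0.09) in the 6. Nrg1 was the 1 member of 8 whose groups did not overlap in the direction of lower levels, and 0 members did so in the other. Over all tested genes the shares were 5.91% and 4.95%. The contrast served to choose the set, so nothing is read from this count.

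Nrg3 (ENSMUSG00000041014), a neuron-made ligand that binds ErbB4, was at 28.9, 34.6, 23.2 and 31.5 CPM in MIA and 27.7, 22.1, 24.1 and 22.2 CPM in MIA_Acu. MIA 4 lay among the MIA_Acu values. Its log2 fold change was -0.30 (SE 0.13) in 8 libraries and -0.41 (SE 0.12) in the 6.

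Nrg2 (ENSMUSG00000060275), a ligand of ErbB3 and ErbB4, averaged 9.39 ± 1.52 CPM over MIA and 7.72 ± 0.805 over MIA_Acu libraries (SD, n = 4). The log2 fold change was -0.28 (SE 0.14) in 8 libraries and -0.42 (SE 0.15) in the 6. Nrg4 (ENSMUSG00000032311), an ErbB4 ligand known from brown fat, had only 52 to 95 counts a library. MIA averaged 2.27 ± 0.256 CPM and MIA_Acu 1.82 ± 0.38 (SD, n = 4), or -0.32 on the log2 scale (SE 0.21). Nrg4 overlaps the opposite-strand gene Fbxo22 (12001 counts in all), so its level is uncertain. For both ligands the groups overlapped.

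Read together, the 4 receptors had higher and the 4 ligands lower means in MIA_Acu, in 8 libraries, in the 6 and with the exchange. The summed receptor CPM over the summed ligand CPM was 0.964, 0.622, 1.38 and 0.903 in MIA and 1.3, 1.77, 1.08 and 1.7 in MIA_Acu. MIA 4 again lay inside the range of the other group. Over all genes, 0 members of 8 were called in 8 libraries (0% of all genes). In the 6 libraries Erbb2, Erbb3 and Erbb4 were called higher (6.22% of all genes) and Nrg1 lower (4.14%). With the exchange Erbb2 alone was called higher (1.04% of all genes), and Erbb3, Erbb4 and Nrg1 were not. These calls rest on the contrast that chose the set and are read as a description only. The 6-library calls ended when MIA_Acu 2 or MIA_Acu 5 was left out of the 6 libraries, since 0 genes of the whole table then passed.

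**Figure D3:**
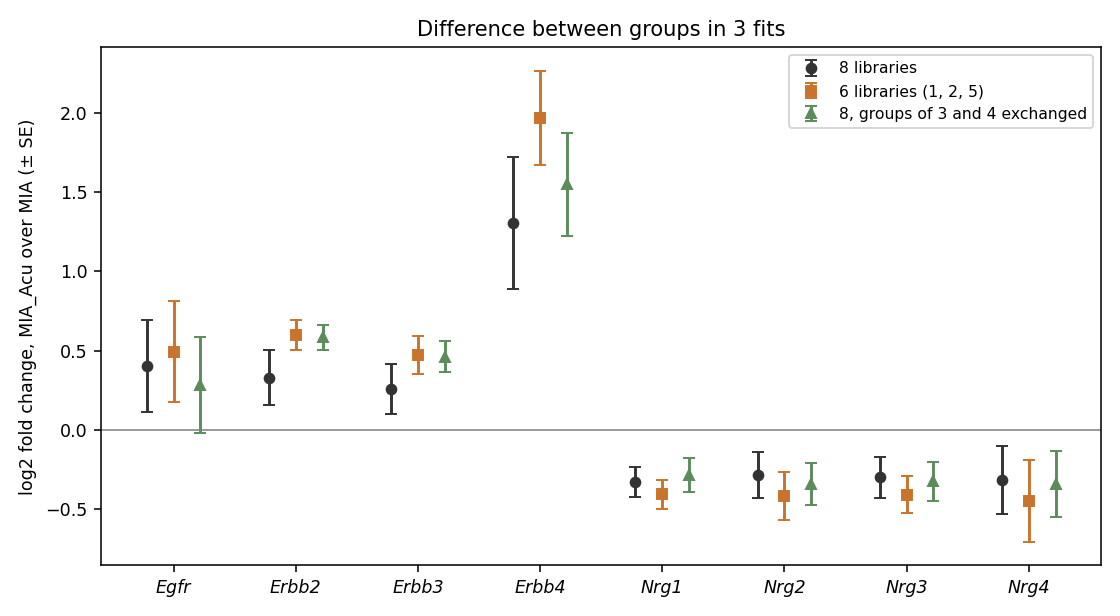
log2 fold change of MIA_Acu over MIA with its standard error for each member, in 8 libraries, in the 6 numbered 1, 2 and 5, and in 8 with the groups of the libraries numbered 3 and 4 exchanged. Receptors lie above 0 and ligands below 0 in each, and Erbb4 has the largest values.

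Marker sums of some cells that carry these genes differed in the direction of the members. None of the 15 lists passed adjustment in the exact permutation test described below (smallest adjusted p = 0.107). In a bulk ganglion, fewer cells of a type and less RNA per cell cannot be told apart. The label of the tissue matched its markers: Avil, Prph, Isl1 and Pou4f1 of sensory neurons were at 70.4 CPM or more in each library. The summed CPM of 14 pan-neuronal markers was 10600 to 14100 in MIA and 9080 to 11100 in MIA_Acu, a log2 difference of -0.34. An exact permutation test over libraries, two-sided, gave p = 0.0571 (0.122 adjusted over 15 marker lists), where 4 against 4 allows 0.0286 at the least. Nrg1 per 1000 CPM of these markers was 9.39 to 10.1 in MIA and 9.24 to 10.5 in MIA_Acu. The Nrg1 groups, which did not overlap in CPM, overlapped on that scale. Nrg3 did so too, at 2.19 to 2.46 and 2.29 to 2.56 per 1000.

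The sum of 15 myelinating Schwann cell markers, such as the myelin protein genes Pmp22 and Mbp, was 15920, 7887, 27320 and 17420 CPM in MIA and 38820, 40650, 22680 and 42890 CPM in MIA_Acu. MIA 4 and MIA_Acu 3 overlapped here as they did for Erbb4. The log2 difference was 1.17 (exact permutation test, two-sided, p = 0.0571, adjusted 0.122), and all 15 markers had higher means in MIA_Acu. Erbb4 per 1000 CPM of these markers overlapped between groups, at 0.164 to 0.275 in MIA and 0.192 to 0.366 in MIA_Acu. Erbb3 per 1000 was 5.27 to 11.8 in MIA and 3.46 to 4.74 in MIA_Acu. The myelin sum itself was higher by 1.17 on the log2 scale, beside a median log2 fold change of 0.018 over all genes. A gene that differs little is thus lower on this scale, and nothing particular to Erbb3 is read from it. Markers of satellite glia, which also carry Erbb3, differed little, with a log2 difference of 0.11 (exact permutation p = 0.2, adjusted 0.25). Non-myelinating Schwann cell markers went the other way, with a log2 difference of -0.22 (exact permutation p = 0.0286, adjusted 0.107). Of 10 tested genes of that list, 8 were lower and 2 higher in MIA_Acu. Mean levels in MIA and MIA_Acu were 503 and 361 CPM for L1cam, 507 and 406 for Ngfr and 202 and 159 for Gap43. The 2 higher were Sox2 (log2 fold change 0.18) and Cdh2 (0.05). Which cells carried these genes was not tested, so the sum is no measure of non-myelinating Schwann cells alone.

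Spinal cord markers differed between libraries and are given beside the receptors, since central inhibitory neurons and glia also carry Erbb4. Over the 8 libraries, Pearson's r with the summed oligodendrocyte markers was 0.95 for Erbb3, 0.90 for Erbb2 and 0.88 for Erbb4, and with the astrocyte markers 0.90, 0.87 and 0.76. With the myelinating Schwann sum r was 0.89, 0.88 and 0.93 in the same order. These values are descriptions, and the points share library depth and composition. All 12 oligodendrocyte markers and all 10 spinal neuron markers had counts in some library. Mog, a myelin protein gene of oligodendrocytes, was at 0, 0.104, 1.35 and 0.615 CPM in MIA and 0.228, 6.24, 0.299 and 8.49 CPM in MIA_Acu. Slc6a5, the glycine transporter gene of inhibitory neurons, was highest in MIA_Acu 5 at 23.7 CPM, then 4.33 in MIA_Acu 2 and 2.61 in MIA 4. MIA_Acu 5 was also the library with the most Erbb4. In MIA_Acu 1, with Erbb4 at 8.56 CPM, Olig1, Olig2, Slc32a1 and Chat were at 0, and Olig2 and Slc32a1 were also at 0 in MIA 1 and MIA 2. Other markers were present in MIA_Acu 1, with Mobp at 8.02, Cldn11 at 9.27 and Gfap at 4.14 CPM. In MIA 1, 2, 4 and 5 Mobp was at 2.13, 3.63, 48.3 and 35.7 CPM. In the same order Cldn11 was at 7.55, 1.49, 14.2 and 7.5 CPM and Gfap at 1.86, 1.7, 29.9 and 9.94 CPM. The astrocyte markers Slc1a2 (5.02 CPM) and Aqp4 (9.24 CPM) were lower in MIA_Acu 1 than in any other library. The oligodendrocyte sum of MIA_Acu 1, 321 CPM, lay above 3 of the 4 MIA libraries. Summed oligodendrocyte markers were 151 to 330 CPM in MIA and 260 to 620 CPM in MIA_Acu (log2 difference 0.89, exact permutation p = 0.0857, adjusted 0.161). Most of that sum came from Gjc3 and Aspa, which were at 54.5 CPM or more in each library. Most of the astrocyte sum came from S100b, at 502 to 707 CPM. In MIA_Acu 1, where Olig2 was at 0, Gjc3 was at 201 and S100b at 707 CPM. The r values with these 2 sums therefore cannot be read as a measure of spinal cord RNA. Summed spinal neuron markers were 41.8 to 53.5 and 37 to 90.5 CPM, of which Tlx3 alone, a gene of sensory neurons too, gave 29.8 to 47.5 CPM. Without Tlx3, left out after its values were seen, the other 9 markers summed to 7.18, 5.95, 9.84 and 8.44 CPM in MIA and 4.88, 15.9, 6.23 and 60.7 CPM in MIA_Acu. MIA_Acu 5 stood highest and MIA_Acu 1 lowest. The part of spinal cord RNA in the receptor levels was not tested.

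**Figure D4:**
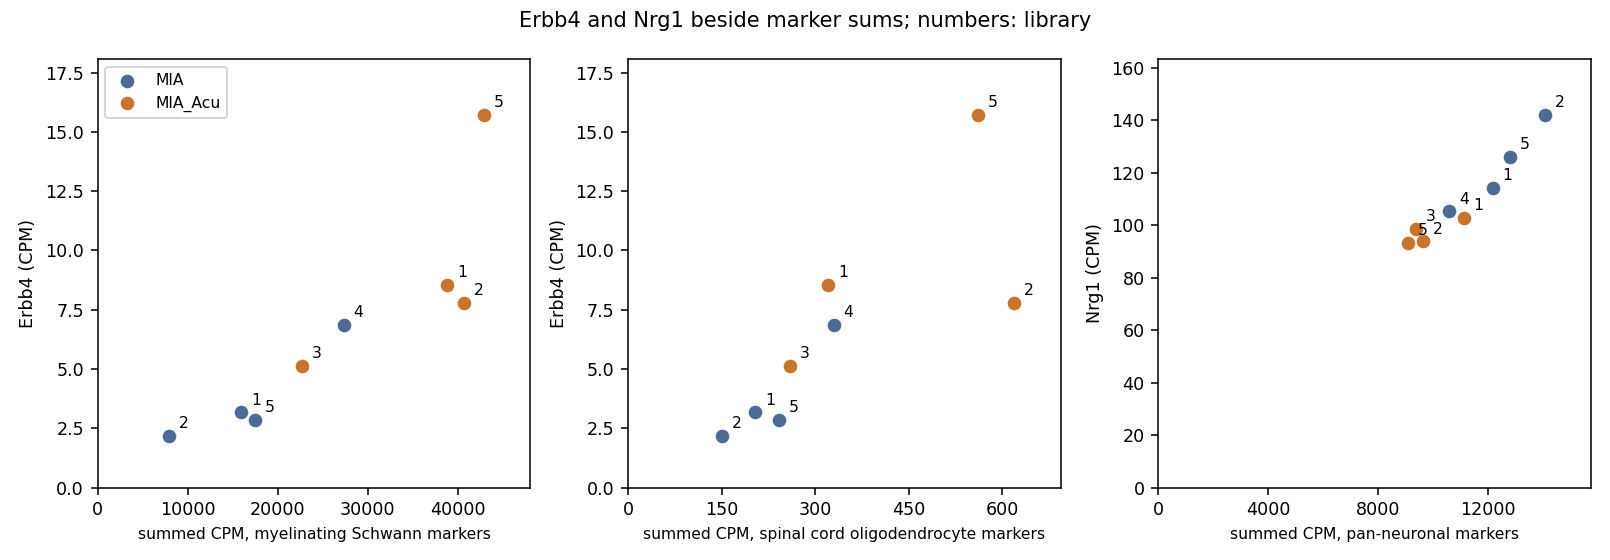
Erbb4 CPM against summed CPM of myelinating Schwann and of spinal cord oligodendrocyte markers, and Nrg1 CPM against summed pan-neuronal markers, one point a library with its number. Erbb4 is high where myelin markers are high, in both groups, and Nrg1 follows the neuronal sum.

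Sums of the other marker lists, some of ganglion cells and some of other tissue, also varied. Fibroblast markers summed to 663 to 1920 CPM in MIA and 2270 to 5810 CPM in MIA_Acu, and endothelial markers to 249 to 324 and 370 to 481 CPM (exact permutation p = 0.0286 for each, adjusted 0.107). Large-afferent markers (p = 0.0286) summed to 4400 to 4950 and 3580 to 4100 CPM, and non-myelinating Schwann markers (p = 0.0286) to 2290 to 2540 and 1940 to 2280 CPM, both adjusted 0.107 in the same exact permutation test. Nociceptor markers summed to 2840 to 3820 and 2380 to 3270 CPM, astrocyte markers to 566 to 768 and 558 to 925 CPM, and macrophage markers to 204 to 263 and 213 to 430 CPM. The sums of bone and cartilage (16.4 to 50 and 18.5 to 674 CPM), skeletal muscle (45.1 to 3950 and 433 to 6690 CPM) and adipocyte markers (3.68 to 24.6 and 16.3 to 68.5 CPM) overlapped as well. Their part in the member levels was not tested.

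Genes that follow the members most closely were sought among tested genes with a mean log2 CPM of at least 1, by Pearson's r of log2 CPM over 8 libraries. Points share library depth and composition, and r is a description. Nearest to Erbb4 were Med13l, a subunit gene of the Mediator kinase module (r = 0.985), Ppp1r16b, a regulator of protein phosphatase 1 (0.983), Elavl1, an RNA-binding protein gene (0.981), Otud7b (0.98) and the surface receptor gene Sirpa (0.979). Without MIA 2 and MIA_Acu 5, its extreme libraries, these were 0.96, 0.986, 0.946, 0.946 and 0.969. Their differences were smaller than that of Erbb4: in 6 libraries the log2 fold change was 0.40 for Med13l and 1.03 for Ppp1r16b. Nearest to Erbb3 were Pdzph1 (0.988), Prss12 (0.982), the Schwann cell integrin gene Itgb4 (0.981), Nek4 (0.98) and Epb41l4b (0.978). Nearest to Nrg1 were the synaptic scaffold gene Dlg4 (0.989), Rassf5 (0.989), Mtmr4 (0.987), Krt222 (0.986) and the vesicle release gene Cplx1 (0.986). Among the members themselves, r was 0.94 for Erbb2 with Erbb3 and also for Nrg1 with Nrg3, and -0.89 for Erbb4 with Nrg1.

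Around the receptors, 97 genes of 5 lists were examined: EGF-type ligands, proteases that process neuregulins, inhibitors, adaptors with kinases, and genes linked to neuregulin signals in Schwann cells. Of the 94 tested, 0 passed in 8 libraries, while 22 were higher and 12 lower at an unadjusted p under 0.05. These are 23.4% and 12.8% of them, beside 11.2% and 10.6% of all genes. In the 6 libraries 21 rose, 4 fell and 69 did not pass in edgeR's test. The shares are 22.3% and 4.26%, beside 6.22% and 4.14% over all genes. No gene of the lists passed without MIA_Acu 2 or without MIA_Acu 5, and 9 rose with the exchange.

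**Figure D5:**
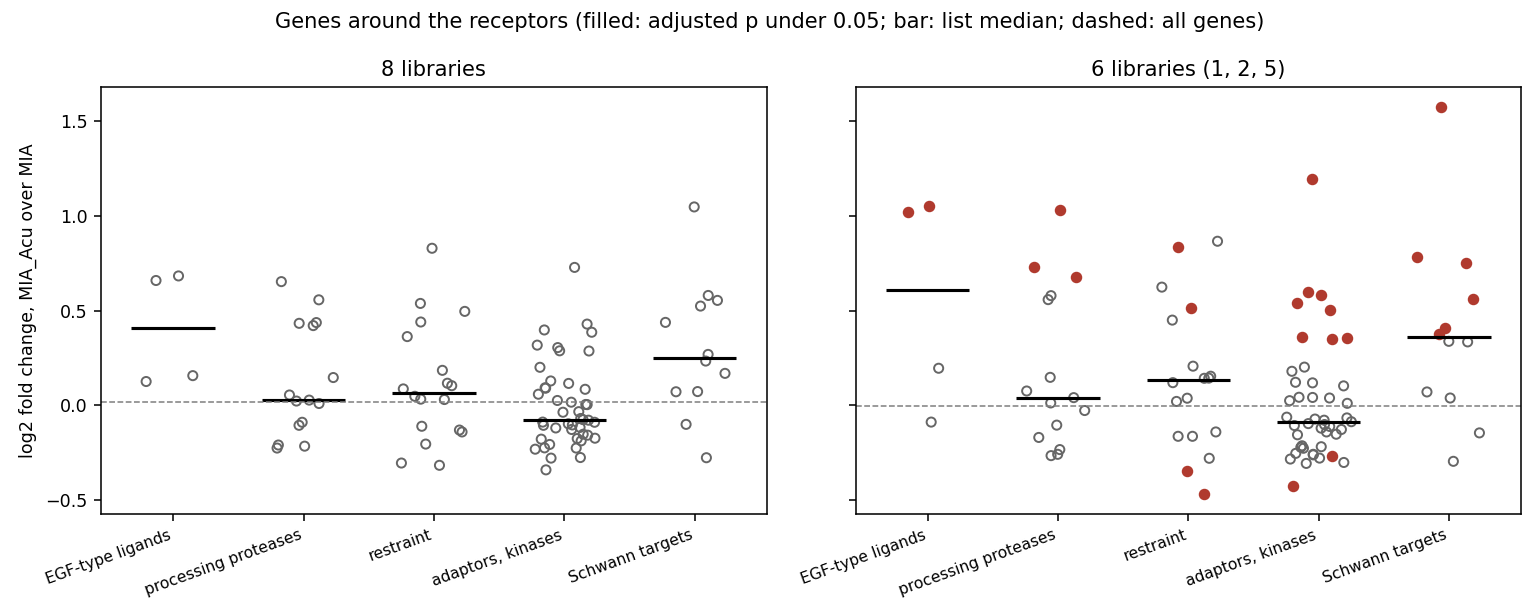
log2 fold change of each tested gene of the 5 lists in 8 libraries (left) and in the 6 numbered 1, 2 and 5 (right), filled where the adjusted p is under 0.05, with a bar at the list median and a dashed line at the median of all genes. Filled points appear in the 6 libraries alone, most of them above 0.

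Of 4 tested EGF-type ligands 2 rose in the 6 libraries, both ligands of the EGF receptor. Tgfa was at 31.4, 19.6, 50.2 and 32.7 CPM in MIA and 55.8, 55.8, 37.2 and 62.6 CPM in MIA_Acu, a 6-library log2 fold change of 1.05 (SE 0.18, adjusted p = 0.0188). Hbegf, which also binds ErbB4, had 1.02 (SE 0.18, adjusted p = 0.0201), with MIA 4 at 27.5 and MIA_Acu 3 at 22.5 CPM. In 8 libraries neither passed (adjusted p = 0.184 and 0.153). The list's median log2 fold change was 0.41 in 8 and 0.61 in 6 libraries, beside 0.018 and -0.003 over all genes.

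Of 15 processing proteases 3 rose in the 6 libraries and 12 did not pass, with a list median of 0.03 in 8 and 0.04 in 6 libraries. Adam17, which sheds neuregulin and EGF-type ligands, was at 43.3, 37.8, 58.8 and 53.2 CPM in MIA and 69.9, 74.7, 68.2 and 71.6 CPM in MIA_Acu. Its groups did not overlap; the 6-library log2 fold change was 0.68 (SE 0.12, adjusted p = 0.0189) and the 8-library adjusted p 0.0881. Adam10 had 1.03 (SE 0.16, adjusted p = 0.0185) and Bace2 0.73 (SE 0.14, adjusted p = 0.0201) in the 6 libraries. Bace1, named for its role after its values were seen, lay lower in every MIA_Acu library, at 114 ± 5.86 and 97.3 ± 4.79 CPM (SD, n = 4). It did not pass in either fit (adjusted p = 0.117 and 0.0502).

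Among 18 inhibitors of ErbB signalling 2 rose, 2 fell and 14 did not pass in the 6 libraries. Lrig1, which sends ErbB receptors to degradation, rose by 0.84 on the log2 scale (SE 0.12, adjusted p = 0.0185). The feedback inhibitor gene Errfi1 rose by 0.51 (SE 0.11, adjusted p = 0.0251) in the 6 libraries. In 8 libraries its means were 41.6 ± 5.3 and 56.5 ± 4.29 CPM (SD, n = 4) with no overlap, a log2 fold change of 0.44 that did not pass (adjusted p = 0.0881). Lrig2 had -0.35 (SE 0.07, adjusted p = 0.0256) and the ubiquitin ligase gene Cblb -0.47 (SE 0.10, adjusted p = 0.025). The list median was 0.07 in 8 and 0.13 in 6 libraries.

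Of 45 adaptor and kinase genes 8 rose, 2 fell and 35 did not pass in the 6 libraries, with a median of -0.07 in 8 and -0.09 in 6. Among those that rose were the adaptor genes Shc4 (log2 fold change 1.19), Gab1 (0.54) and Erbin (0.60) and the kinase genes Akt2 (0.35) and Fyn (0.35), with adjusted p of 0.0188 to 0.0329. In 8 libraries the groups of 3 of the 45 genes did not overlap in the direction of higher levels, and of 3 in that of lower. Over all tested genes the shares were 4.95% and 5.91%. Akt2 was among the 3 higher, at 69.3 ± 6.4 and 85.7 ± 2.7 CPM (SD, n = 4). The adaptor genes Shc2 (-0.42, adjusted p = 0.043) and Sos1 (-0.27, adjusted p = 0.0471) fell.

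Of 12 genes listed as linked to neuregulin signals in Schwann cells, 6 rose in the 6 libraries and 6 did not pass. The list median was 0.25 in 8 and 0.36 in 6 libraries. Whether neuregulin signals moved these genes was not tested. Egr2, the master regulator of myelin genes, was at 28.1, 16.7, 51.6 and 28 CPM in MIA and 66, 77.4, 38.9 and 74.6 CPM in MIA_Acu. MIA 4 lay above MIA_Acu 3, as for Erbb4. Its 6-library log2 fold change was 1.58 (SE 0.19, adjusted p = 0.0185), and in 8 libraries it did not pass (adjusted p = 0.127). Sox10, the glial lineage factor, rose by 0.78 (adjusted p = 0.0271) and Pou3f1, a factor of promyelinating cells, by 0.75 (adjusted p = 0.0327). The EGR cofactor genes Nab1 (0.41, adjusted p = 0.0486) and Nab2 (0.56, adjusted p = 0.0372) rose too. The list shares Egr2 with the myelinating Schwann markers, and the myelin marker sums above moved with it. It shares Etv1 with the large-afferent markers.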

How the data were processed

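Poly(A) RNA libraries were made from TRIzol-extracted ganglia with a NEBNext Ultra kit, as the labels state. FastQC, Trimmomatic and build GRCm39 (mm39) appear in the submitters' processing notes; the aligner, counter, strand setting and annotation were not given in the sources used here. The authors deposited raw counts per Ensembl gene for 8 libraries. Total counts of 32892804 to 40627041 set the precision for low genes.

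The counts were filtered with filterByExpr by group (minimum count 10, minimum total 15), TMM-scaled and tested with edgeR 4.0.16 in R 4.3.3 (quasi-likelihood, group as the only term), tested on simulated data first. Standard errors came from the F statistic. Correlations used log2 CPM with a prior count of 2. Lengths are from GENCODE M21 (GRCm38), used for length alone; all 8 members had one. Alternatives were DESeq2 1.42.0, limma voom 3.58.1, other filters and scaling, single libraries left out, a replicate block, and the exchange of 2 columns.

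Every member was named; of each list, genes past the threshold in the 6 libraries, up to 6 a direction, and for Erbb4, Erbb3 and Nrg1 the 5 most similar genes. Some genes that this rule names are not reported here. Members and lists were chosen with earlier results of these data known. Libraries of a group differed beyond sampling noise (chi-square per degree of freedom 17.9 or more).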

Additional observations from a re-analysis of the deposited data

Results flagged for a closer look

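Single libraries that stood apart from the other 3 of their group by Dixon's criterion were noted in 7 of 88 groups of 4 examined; chance gives about 1 in 20. None concerned a member. In MIA_Acu 3, Hbegf was at 22.5 CPM against 33.9 to 34.8 in the others and Bace2 at 27.8 against 41.2 to 43.7. In MIA 4, Fyn was at 116 CPM against 98.2 to 99.7. These are the libraries whose numbers match no title. Summed bone and cartilage markers were at 674 CPM in MIA_Acu 3 against 18.5 to 72.3, and at 50 in MIA 5 against 16.4 to 22. Summed adipocyte markers were at 68.5 CPM in MIA_Acu 3 against 16.3 to 23.4. Summed large-afferent markers were at 3580 CPM in MIA_Acu 2 against 4010 to 4100.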

How the results depend on the processing

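All 8 members kept the sign of their log2 fold change in each of 14 alternatives in 8 libraries and 12 in 6. Erbb4 ranged from 0.93 to 1.77 and from 1.58 to 2.15. Each alternative keeps most of the libraries that served to choose the set, so the kept signs are no independent check. In the pair outside the choice, 6 of the 8 members had the opposite direction, though Nrg2, Nrg3 and Nrg4 differed there by 0.13 or less on the log2 scale. Without a low-count filter 6 genes passed in 8 libraries, with DESeq2 1753 (21 of the lists) and with the exchange 207 (9 of the lists). Leaving out single libraries gave 0 to 1340 genes and 0 to 17 list genes, above 0 only without MIA 4. In the 6 libraries DESeq2 called 3267, and leaving out single libraries gave 0 to 2742 genes and 0 to 31 list genes: 0 without MIA_Acu 2 or MIA_Acu 5. The cause of these changes was not tested. Whether equal numbers pair the libraries is unknown: the labels do not say, correlations of deviations were 0.068, 0.267 and 0.156, and 5 of 6 libraries correlated best with their own number, a hint from the data alone. The replicate block called 1486 genes and 20 list genes. The spinal neuron marker difference ranged from -0.19 (without MIA_Acu 5) to 0.24 on the log2 scale when single libraries were left out. With 1 library left out, the exact permutation test of marker sums cannot go below p = 0.0571. Mean transcript length moved 7 of 8 levels by more than 1 SD.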
